A study of Mus musculus with 6 samples.

Results

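This account covers the change of the uterine epithelium of wild-type mice between day 1 and day 4 of pregnancy, read from 4 of the 6 Affymetrix arrays of the series. The arrays were chosen by the genotype and day in their titles: wild-type samples 302 and 303 were taken on day 1, the day the vaginal plug was found, and wild-type samples 277 and 284 on day 4. The other 2 arrays (253 and 281) came from day 4 females heterozygous for Sox17, carrying a GFP allele beside a normal one, and entered only to help estimate the spread. All 6 samples were epithelium freed from pieces of uterus with pancreatin and dispase, and the labels name neither strain nor age. Each sample is 1 array. Nothing states that the samples came from separate animals, so p-values measure only the spread between these samples, which may be technical.

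The uterine epithelium lines the lumen and forms the glands. In the mouse, estrogen dominates around mating, when the lining secretes fluid, mucins and antimicrobial proteins, and progesterone prevails by day 4, when the lumen closes and the lining prepares to receive the embryo.

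All 14 measured epithelium markers were abundant. Krt8, a keratin of simple epithelium, had signals of 29015 and 29696 (day 1) versus 25455 and 28373 (day 4), and the adhesion protein gene Epcam had 25634 and 24071 (day 1) versus 16220 and 16834 (day 4). Of the 14 markers 1 was higher and 4 lower on day 4, and their summed signal was 248503 and 244023 for day 1 against 172392 and 188368 for day 4. Signals summed over the 13 stroma markers came to 5686 and 11655 for day 1 against 4782 and 5508 for day 4. Over the 10 endothelium markers the sums were 294 and 451 for day 1 against 927 and 483 for day 4. None of these stroma markers passed in limma, against 1 endothelium marker that was higher (Vwf, a clotting factor gene of vessel walls, 1.3 and 6 (day 1) versus 104 and 97 (day 4)); at an unadjusted p under 0.05, 2 stroma markers passed. Neutrophil, lymphocyte and erythrocyte markers summed to between 23 and 1095 per array, and smooth muscle markers (2 higher, 1 lower of 10) to between 986 and 1161. Mesothelium markers (0 of 6 called in limma, 0 at an unadjusted p under 0.05) summed to between 20010 and 25085. Nearly all of that sum was Krt19, a keratin also counted among the epithelium markers (24334 and 24037 (day 1) versus 21051 and 19462 (day 4)). Array 277 differed from the others in the dim range, with a median signal of 137.6 against 66.2 to 78.0 and 27.0% of probe sets below 50 against 41.6% to 44.6%. It also stood above array 284 for the keratin genes Krt5 (1095 against 64.8), Krt15 (1407 against 10.9), Krt14 (566 against 9.2) and Krt13 (429 against 54.2). None of these keratin genes passed, and Krt7, Krt8 and Krt18 read higher on array 284. Whether tissue content differed between the day 4 samples was not tested. The part of array 277 in the result was not tested beyond leaving it out.

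Between the days 1379 of 18193 genes were higher on day 4 (7.58%) and 1042 lower (5.73%) when limma's p, adjusted by Benjamini and Hochberg's method, had to be under 0.05. The median log2 change of all genes was 0.30. A gene was called abundant when both arrays of a group read over 200, and 9252 genes were. Of these, 1106 were higher (12.0%) and 967 lower (10.5%), and the change reached at least 8-fold for 231 of the higher and 284 of the lower genes, with signals under 50 set to 50 before the fold was taken. Without day 1 array 302 or 303 the default limma fit called 0 genes. Then 3740 and 3946 genes had an unadjusted p under 0.05, and 3177 and 3458 were called when the spread was modelled as a trend of intensity. Without day 4 array 277 it called 755 higher and 938 lower, and with every array centred on its own median 587 and 821, so that the share of increases among calls went from 57.0% to 41.7%.

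**Figure D1:**
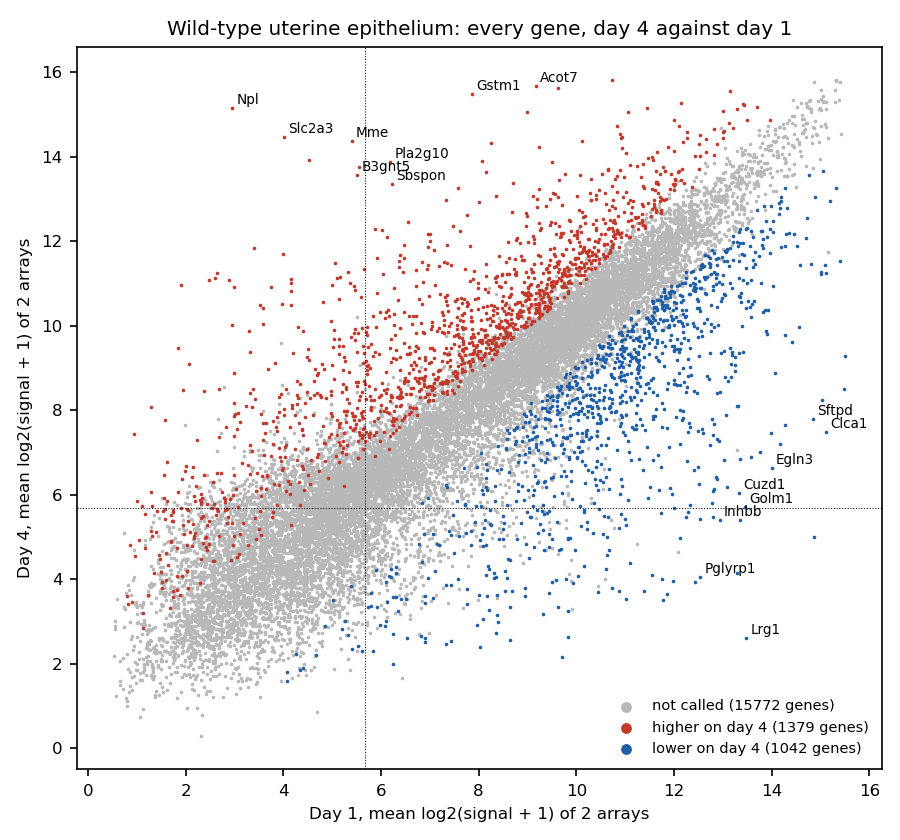
Mean log2(signal + 1) of the 2 day 4 arrays (vertical axis) against that of the 2 day 1 arrays (horizontal axis), 1 point per gene, with the 1379 genes higher on day 4 in red and the 1042 lower in blue; dotted lines mark a signal of 50. The points farthest from the diagonal include Npl and Slc2a3 at the upper left and Lrg1 and Pglyrp1 at the lower right.

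Some transcripts went from dim to bright or the reverse. A transcript was counted as switched on when both day 1 arrays read under 50 and both day 4 arrays over 200, and as switched off in the opposite case. By this rule 125 genes switched on (0.687% of those measured) and 92 switched off (0.506%), and 116 and 86 of them also passed the test. These classes were set by the signals themselves and describe the arrays, without a test of their own. The counts were 286 switched on without array 284 and 212 switched off without array 277, and 78 switched on after centring on the median. Leaving out an array can only keep or raise these counts, because every array of a day must meet its limit. Just inside the limits lay Cfap53 (8.1 and 44 (day 1) versus 330 and 201 (day 4)) and Acvrl1 (202 and 263 (day 1) versus 42.4 and 17.1 (day 4)), and just outside lay Rad54l (35.9 and 39.9 (day 1) versus 282 and 198 (day 4)) and Cxcl10 (343 and 195 (day 1) versus 4.1 and 4.4 (day 4)).

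The leading increases outside the usual hormone markers were enzymes, carriers and surface proteins. Npl, an enzyme that splits sialic acid, had signals of 3.8 and 11.6 (day 1) versus 37448 and 35335 (day 4), a rise of at least 728-fold above the limit of 50 (adjusted p = 0.00518). Elsewhere log2 changes are given with their SE (n = 2 arrays a day), but a gene with an array under 50 gets only the fold above that limit. The glucose carrier gene Slc2a3 had 6.9 and 32 (day 1) versus 22651 and 22563 (day 4) (at least 452-fold, adjusted p = 0.00754). The membrane peptidase gene Mme had 50.1 and 33.7 (day 1) versus 19902 and 22179 (day 4) (at least 420-fold, adjusted p = 0.00518). The ranking took only genes without overlap between the days, which held for all 2421 called genes, so the gap follows from the choice. The other probe sets of Slc2a3 and Mme moved the same way. B3gnt5, which starts the lacto-series chains of glycolipids, had 39.9 and 49.9 (day 1) versus 11719 and 12553 (day 4) (at least 243-fold), and the secreted phospholipase gene Pla2g10 had 90.1 and 57.6 (day 1) versus 16246 and 13967 (day 4) (209-fold). The glutathione transferase gene Gstm1 had 157 and 342 (day 1) versus 54580 and 38800 (day 4) (199-fold) and its close relative Gstm2 689 and 913 (day 1) versus 56764 and 45168 (day 4) (63.8-fold). The probe set of Gstm1 is of a kind that can also read related transcripts, so these relatives may share signal.

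The rest of the 15 leading increases had wider roles. Acot7, a thioesterase that splits fatty acyl-CoA, was already measurable on day 1, with signals of 532 and 620 (day 1) versus 59865 and 45483 (day 4) (90.8-fold). Ckb, the brain-type creatine kinase, had 319 and 291 (day 1) versus 21298 and 19508 (day 4) (66.9-fold). Hopx, a homeodomain-only cofactor of transcription, had 550 and 460 (day 1) versus 42271 and 27086 (day 4) (67.3-fold). These 3 genes moved from a medium to a very high signal and did not switch on from a dim one. Fgf1, a fibroblast growth factor gene, had 83.8 and 49.3 (day 1) versus 4526 and 5381 (day 4) (at least 76.2-fold), and Aqp11, an aquaporin of intracellular membranes, 5.8 and 36.4 (day 1) versus 2866 and 3831 (day 4) (at least 66.3-fold). Slc5a11, a sodium-coupled inositol carrier gene, had 9.4 and 9.7 (day 1) versus 3792 and 3571 (day 4) (at least 73.6-fold). Rab40b, a small GTPase gene, and Sbspon, a gene of a secreted matrix protein, completed the group, with rises of 142-fold for Sbspon and at least 83.6-fold for Rab40b. Adjusted p-values of all 15, which had to be under 0.05 for the ranking, lay between 0.00518 and 0.0142.

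The leading decreases outside the usual hormone markers were mostly secreted or surface proteins. Lrg1, a secreted leucine-rich glycoprotein of the acute phase, had signals of 11254 and 11666 (day 1) versus 11.6 and 1.9 (day 4), a fall of at least 229-fold (adjusted p = 0.00754). Clca1, a secreted metalloprotease that acts on chloride channels, had 35538 and 35672 (day 1) versus 383 and 82.9 (day 4) (200-fold). Sftpd, a collectin that binds microbial sugars, had 28672 and 30377 (day 1) versus 386 and 123 (day 4) (135-fold). Both day 1 arrays were close together in these genes, and array 277 lay above array 284. That both day 4 arrays were far lower follows from the ranking. The peptidoglycan-binding protein gene Pglyrp1 had 5333 and 6623 (day 1) versus 29.8 and 7.8 (day 4) (at least 119-fold), the neutrophil chemokine gene Cxcl2 8020 and 6242 (day 1) versus 79.4 and 23.4 (day 4) (at least 112-fold), and Inhbb, which encodes the activin beta B subunit, 8491 and 7255 (day 1) versus 84.4 and 19.7 (day 4) (at least 121-fold). Cuzd1, which encodes a membrane protein with CUB and zona pellucida domains, fell at least 117-fold, and the protease gene Hgfac, whose product activates hepatocyte growth factor, at least 113-fold.

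Intracellular and junction genes were also among the 15. Golm1, a Golgi membrane protein gene, had 10688 and 11906 (day 1) versus 33.4 and 78.6 (day 4) (at least 180-fold). Egln3, an oxygen-sensing prolyl hydroxylase, had 17053 and 15808 (day 1) versus 169 and 56.6 (day 4) (168-fold). Tgm2, a protein cross-linking enzyme, had 36051 and 30976 (day 1) versus 467 and 194 (day 4) (111-fold), and the gap junction gene Gja1 13149 and 11278 (day 1) versus 131 and 106 (day 4) (104-fold). The last 3 were carrier genes. Slc16a1 of monocarboxylate transport had 6868 and 5142 (day 1) versus 24.5 and 71.9 (day 4), Slco4a1 of organic anion transport 7059 and 7131 (day 1) versus 109 and 41 (day 4), and Mfsd4a of the major facilitator family 5785 and 4037 (day 1) versus 35.6 and 53.1 (day 4). The other probe set of Slc16a1 was under 50 on all arrays. Adjusted p-values of these 15 genes, chosen in the same way, lay between 0.00518 and 0.0174.

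**Figure D2:**
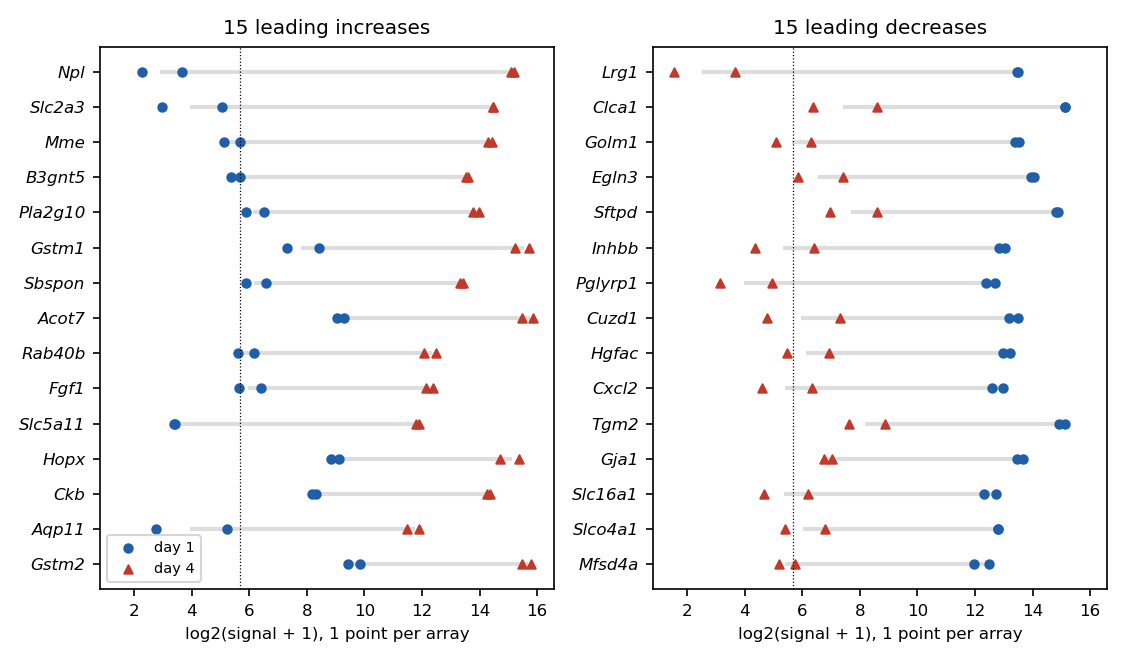
log2(signal + 1) on each wild-type array for the 15 leading increases (left) and 15 leading decreases (right), ordered by fold with signals under 50 set to 50; circles are the 2 day 1 arrays, triangles the 2 day 4 arrays, grey bars join the group means and the dotted line marks a signal of 50. The rows were ranked by this change, so the gap between the days follows from the choice. Genes of the hormone list were left out.

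The functional lists held 972 measured genes, of which 117 were higher and 184 lower on day 4. Over all genes 7.58% were higher and 5.73% lower, and over abundant genes 12.0% and 10.5%. A list count near these shares does not set the list apart. For each list up to 6 abundant genes of smallest adjusted p were named by rule. The further members named beside them were chosen after their values were seen, among them Ptgs2, Arg1 and Sprr2d, which also belong to the hormone markers. Lrp2, Olfm1, Padi1 and Hsd17b2, described below, are hormone markers too and were for that reason left out of the ranking. Lrp2 rose at least 312-fold, and Olfm1, Padi1 and Hsd17b2 fell at least 202-fold, 127-fold and at least 69.8-fold. The share of members that changed differed widely between lists, from 0 of 38 respiratory chain genes to 13 of 27 ion, phosphate, zinc and nucleoside transporter genes (5 higher, 8 lower).

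**Figure D3:**
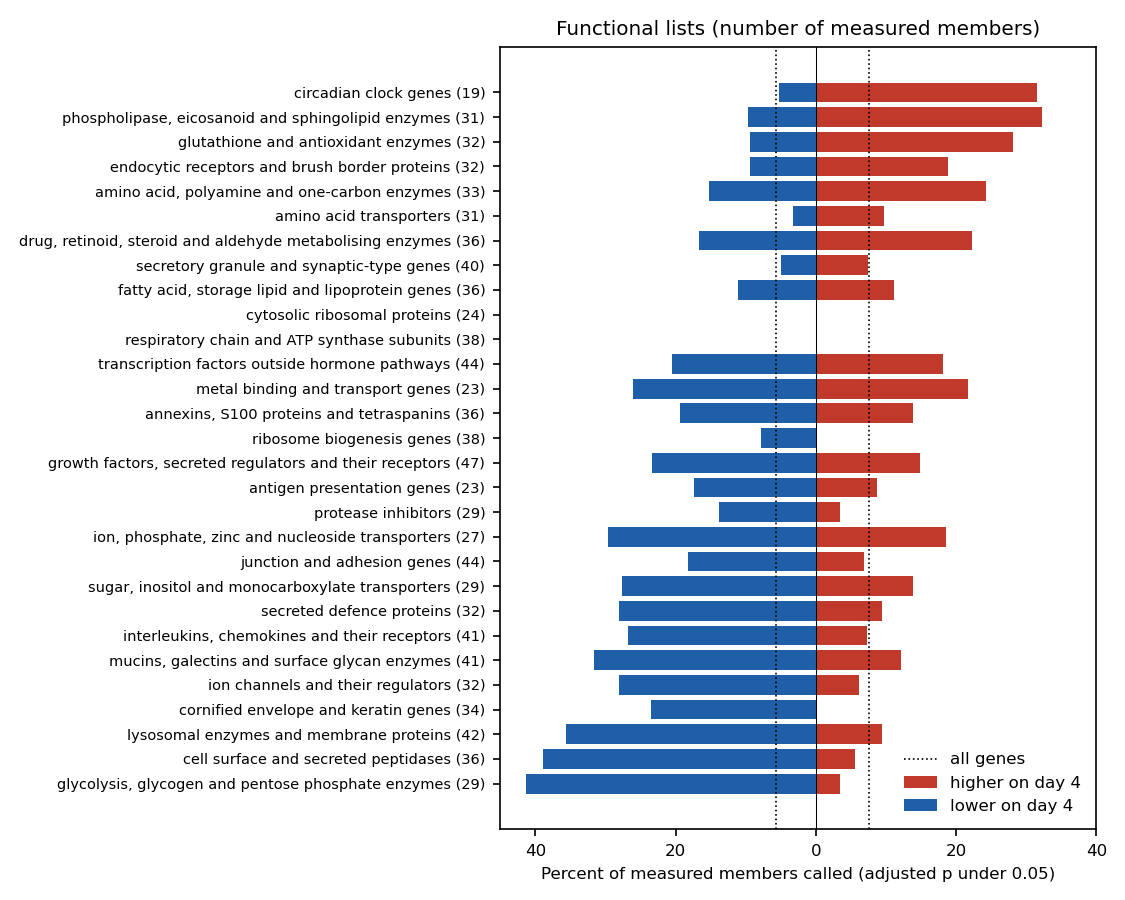
Percent of the measured members of each of 29 functional lists that were higher (red, to the right) or lower (blue, to the left) on day 4 at an adjusted p under 0.05, with the number of measured members in parentheses; dotted lines mark the same share over all genes (7.58% higher, 5.73% lower). Glycolysis, peptidases and lysosomal genes have the largest shares lower, and clock genes, phospholipase and eicosanoid enzymes and glutathione enzymes the largest shares higher. No line is drawn for abundant genes, of which 12.0% were higher and 10.5% lower.

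Of 29 measured genes of glycolysis, glycogen and the pentose phosphate route, 12 fell and 1 rose. Their median log2 change was -0.91, beside 0.30 over all genes and 0.09 over abundant genes. Aldolase A (Aldoa) had signals of 22357 and 22497 (day 1) versus 4704 and 4515 (day 4) (-2.28 ± 0.18), phosphoglycerate kinase (Pgk1) 16677 and 15465 (day 1) versus 5237 and 4841 (day 4) (-1.67 ± 0.19) and triose phosphate isomerase (Tpi1) 19694 and 16637 (day 1) versus 6170 and 6674 (day 4) (-1.50 ± 0.21). Hexokinase 2 (Hk2), which commits glucose to the cell, had 7501 and 6766 (day 1) versus 1831 and 2103 (day 4) (-1.86 ± 0.29), while Hk1 had 555 and 718 (day 1) versus 1292 and 1313 (day 4), short of the threshold (adjusted p = 0.0519). Lactate dehydrogenase A (Ldha) fell from 20379 and 19421 to 9614 and 10178 (-1.01 ± 0.19), and the phosphofructokinase gene Pfkp from 2027 and 1295 to 71.5 and 8.2 (at least 27.1-fold), with smaller changes of its other probe sets. Pfkfb3, which makes the activator of phosphofructokinase, went the other way, from 775 and 813 to 7387 and 9743 (3.42 ± 0.24). Other genes known as targets of low oxygen, chosen after their values were seen, moved in both directions, and more of those named here fell. The mitophagy gene Bnip3 fell from 8416 and 5636 to 905 and 977 and the angiogenic factor Vegfa from 3546 and 3004 to 996 and 1145. Egln3 fell 168-fold and Adm 35.5-fold, and Slc2a1 and Bhlhe40 changed by -2.43 and -2.24 on the log2 scale. In contrast, Stc1 rose from 149 and 165 to 2359 and 3583 and Slc2a3 rose at least 452-fold. Another probe set of Stc1 rose by only 0.60 on the log2 scale, with dim signals set to the limit. Hif1a, the oxygen-regulated transcription factor itself, rose from 6320 and 5601 to 21287 and 26019 (1.98 ± 0.21); its protein is controlled mainly by degradation, which arrays do not read.

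The sequence before their starts is shown for 3 of the enzymes that fell, from RefSeq promoters (build GRCm38.p6, 250 bases before to 50 after the start). Capitals mark ACGTG, the core letters of a site for the hypoxia-inducible factor, or its reverse complement CACGT. Both occur inside the E-box CACGTG, which counts once on each strand. The 3 genes were chosen after the search, from those that fell and hold more than 1 match, and where a gene has several promoters the one with most matches is shown. Ldha lies at chr7:46845554-46845853 (plus strand) and holds 5 matches, Pgk1 at chrX:106186850-106187149 (plus strand) with 2, and Hk2 at chr6:82774405-82774704 (minus strand) with 2.
Ldha: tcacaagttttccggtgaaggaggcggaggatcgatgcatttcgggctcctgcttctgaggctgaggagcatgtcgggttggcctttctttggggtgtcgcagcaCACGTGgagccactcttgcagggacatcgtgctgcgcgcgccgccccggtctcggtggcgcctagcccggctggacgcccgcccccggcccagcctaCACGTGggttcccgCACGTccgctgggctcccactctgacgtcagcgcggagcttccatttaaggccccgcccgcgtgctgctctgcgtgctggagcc
Pgk1: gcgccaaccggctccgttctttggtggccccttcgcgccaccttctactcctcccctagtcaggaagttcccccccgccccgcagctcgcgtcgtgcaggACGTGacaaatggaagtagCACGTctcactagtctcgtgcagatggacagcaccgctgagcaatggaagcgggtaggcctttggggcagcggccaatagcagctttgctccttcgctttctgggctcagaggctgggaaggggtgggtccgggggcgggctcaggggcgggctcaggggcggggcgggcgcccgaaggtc
Hk2: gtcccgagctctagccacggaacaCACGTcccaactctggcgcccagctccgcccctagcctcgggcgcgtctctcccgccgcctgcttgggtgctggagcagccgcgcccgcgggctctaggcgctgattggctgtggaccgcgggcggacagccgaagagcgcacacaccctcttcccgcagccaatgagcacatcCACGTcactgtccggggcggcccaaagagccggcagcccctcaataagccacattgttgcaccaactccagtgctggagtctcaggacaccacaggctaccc
The letters were found in 15 of 29 listed genes with a promoter in the table (51.7%), in 8 of the 12 that fell (66.7%), in Pfkfb3, the 1 that rose, and in 26.1% of all 14452 measured genes with one. Over all genes the share was 26.6% among those higher on day 4 and 29.9% among those lower. A match describes these letters only. Base composition of the promoters was not compared.

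Carriers for sugars, inositol and monocarboxylates changed in opposite directions within families. Of 29 measured, 4 rose and 8 fell. Beside Slc2a3, the glucose carrier gene Slc2a12 rose from 93.4 and 91.7 to 5083 and 6165, whereas Slc2a1, the common glucose carrier of dividing cells, fell from 8641 and 6559 to 1344 and 1446 (-2.43 ± 0.23). Among sodium-coupled carriers Slc5a11 rose, while the glucose carrier gene Slc5a1 fell from 5887 and 4522 to 551 and 483 and the lactate carrier gene Slc5a8 from 4628 and 3364 to 97.5 and 41.3. Slc16a12, whose product carries creatine, rose from 17.1 and 1.1 to 2028 and 2893. Its relatives Slc16a1, Slc16a7 and Slc16a14 fell, as did Bsg, the chaperone that brings monocarboxylate carriers to the membrane (14094 and 14071 (day 1) versus 4861 and 4825 (day 4)).

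**Figure D4:**
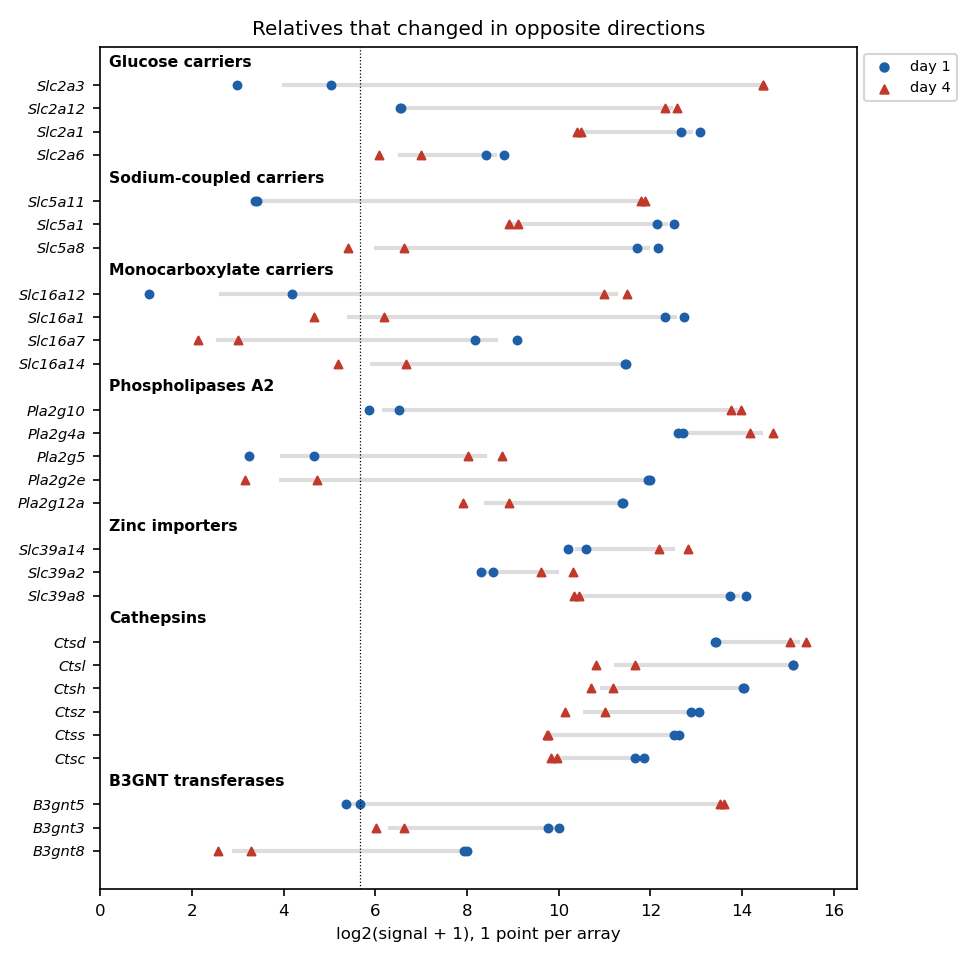
log2(signal + 1) on each wild-type array for members of 7 gene families in which some members rose and others fell; circles are day 1, triangles day 4, grey bars join the group means and the dotted line marks a signal of 50. Within each family triangles lie to the right of circles for some members and to the left for others.

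Further families also held members of both directions, apart from claudins and connexins, whose called members moved in 1 direction each. The families were picked after the values were seen, and the counts describe abundant members only. Of all abundant genes 12.0% were higher and 10.5% lower. Among 11 abundant cathepsin genes, 1 was higher and 6 lower; Ctsd, an aspartic protease of the lysosome, rose from 11083 and 10924 to 43043 and 33892 (1.80 ± 0.21), and the cysteine protease gene Ctsl fell from 35346 and 35692 to 1807 and 3250 (-3.87 ± 0.34). Of 11 abundant zinc importer genes, Slc39a14 (2.10 ± 0.31) and Slc39a2 (1.53 ± 0.31) rose and Slc39a8 fell (-3.53 ± 0.22). In the anion exchanger family Slc26a2, which takes up sulfate, rose (2.37 ± 0.25) and Slc26a4 fell (at least 91.5-fold). Glutamate carrier gene Slc1a1 rose from 1029 and 1795 to 7583 and 10095, and the glutamine carrier gene Slc1a5 fell from 5918 and 7115 to 1604 and 1869. Of claudins, the sealing proteins of tight junctions, 11 were abundant. Of these 11 5 rose and 0 fell, among them Cldn3 (1.39 ± 0.21), Cldn8 (2.86 ± 0.56) and Cldn1 (1.54 ± 0.30), while both abundant connexins fell (Gja1 and Gjb2, -2.89 ± 0.19).

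Enzymes of amino acid and one-carbon metabolism rose in 8 of 33 cases and fell in 5. Gldc, the decarboxylase of the glycine cleavage system, switched on, with signals of 6.4 and 4.1 (day 1) versus 1809 and 2751 (day 4) (at least 44.6-fold). Its partner Gcsh, the lipoyl carrier of the same system, fell from 2719 and 2650 to 905 and 1023 (-1.48 ± 0.19). The cytosolic and mitochondrial folate enzymes Mthfd1 and Mthfd2 rose by 2.96 ± 0.39 and 2.81 ± 0.23 on the log2 scale, whereas Shmt2, the mitochondrial serine hydroxymethyltransferase, fell from 1466 and 1622 to 420 and 352. Cbs and Cth form the route from homocysteine to cysteine. Cbs rose from 41.6 and 75.9 to 1037 and 1371 (at least 19.4-fold) and Cth from 47.2 and 97 to 1271 and 1285 (at least 18.3-fold). Glutamine synthetase (Glul) rose from 3430 and 3561 to 10611 and 18232. Of the polyamine genes, Sat1, which acetylates spermidine, and Srm, which makes it, fell (-1.84 ± 0.30 and -1.55 ± 0.29), Azin1, an inhibitor of antizyme, rose (1.04 ± 0.19), and the first enzyme, Odc1, read 2052 and 2060 (day 1) versus 1947 and 2418 (day 4) without passing.

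Glutathione and antioxidant enzymes rose in 9 of 32 cases and fell in 3. The median of the list (-0.01) lay below that of all genes (0.30) and nearer to that of abundant genes (0.09). Besides Gstm1 and Gstm2, the transferase gene Gstp1 rose from 3382 and 3854 to 11932 and 14191. Gclc, the catalytic subunit that starts glutathione synthesis, rose by 1.32 ± 0.21, catalase (Cat) by 2.62 ± 0.36, and the peroxidase gene Gpx2 by 3.02 ± 0.41. Sulfiredoxin (Srxn1, -2.21 ± 0.23) and the endoplasmic reticulum peroxiredoxin Prdx4 (-1.93 ± 0.24) fell. Of 7 measured mu-class transferases all were abundant, and 4 rose.

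The zinc and copper binding metallothionein genes Mt1 and Mt2 had signals of 10162 and 8029 (day 1) versus 57465 and 40492 (day 4) and of 5795 and 3548 (day 1) versus 46013 and 33252 (day 4) and rose (2.42 ± 0.27 and 3.11 ± 0.34). The intracellular copper carrier gene Slc31a2 rose from 786 and 915 to 4416 and 5026. Genes of iron traffic moved in both directions. The transferrin receptor Tfrc fell from 6324 and 6749 to 467 and 431 (-3.86 ± 0.25), the iron exporter Slc40a1, counted with the ion transporters, from 23620 and 24869 to 1292 and 776 (-4.60 ± 0.41), and the ferroxidase Cp from 11930 and 19202 to 1135 and 780 (-4.01 ± 0.38). The reductase gene Steap2 fell 32-fold and Steap1 at least 69.9-fold. Scara5, a ferritin receptor gene outside the list and named after its values were seen, rose from 90.9 and 46.9 to 2704 and 2122 (at least 35.5-fold), and Slc39a14, which also imports iron, rose by 2.10 ± 0.31 on the log2 scale. Over the metal list 5 of 23 genes rose and 6 fell.

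Phospholipase, eicosanoid and sphingolipid enzymes rose in 10 of 31 cases, the largest share of increases among the lists, and fell in 3. Pla2g4a, the cytosolic phospholipase that frees arachidonic acid, rose from 6691 and 6199 to 18513 and 26162 (1.77 ± 0.25). All 3 abundant lipoxygenase genes rose, Alox12e from 695 and 715 to 9268 and 7220 (3.53 ± 0.23), Alox15 from 3736 and 2712 to 11626 and 9728, and Alox12 from 78.1 and 86.7 to 538 and 460. Plb1, a phospholipase B, rose from 51.1 and 75.2 to 1368 and 1208. Sptlc3, a subunit of the first enzyme of sphingolipid synthesis, switched on (11.8 and 12.9 (day 1) versus 1778 and 2086 (day 4), at least 38.5-fold). The cyclooxygenase gene Ptgs2 fell from 12423 and 10293 to 2138 and 3270, Alox5ap, which serves leukotriene synthesis, fell by 2.32 ± 0.40 on the log2 scale, and the secreted phospholipase gene Pla2g2e switched off (4077 and 3962 (day 1) versus 25.7 and 7.9 (day 4)).

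Endocytic and brush border genes rose in 6 of 32 cases and fell in 3. Lrp2, the large endocytic receptor megalin, had signals of 24.2 and 20.1 (day 1) versus 13372 and 18257 (day 4). Its chaperone Lrpap1 rose from 3664 and 5306 to 23365 and 31504 (2.62 ± 0.29) and its adaptor Dab2 from 266 and 196 to 836 and 824 (1.86 ± 0.23), so receptor, chaperone and adaptor all rose. Cubn, the partner receptor, had 21.5 and 7.6 (day 1) versus 123 and 167 (day 4), short of the threshold (adjusted p = 0.0618). Radixin (Rdx), which ties membrane to actin in microvilli, rose from 3824 and 3696 to 19774 and 18714, and Prom1, a protein of membrane protrusions, fell from 40338 and 40961 to 9231 and 10522. Cell surface and secreted peptidases fell in 14 of 36 cases, while 2 rose, Mme and the secreted serine protease Klk8. The matrix metalloprotease gene Mmp7 fell from 9516 and 7345 to 208 and 61.1 and the membrane serine protease gene Tmprss4 from 9214 and 10274 to 470 and 610.

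Glycan enzymes and mucins fell in 13 of 41 cases and rose in 5. Beside Npl and B3gnt5, Gcnt3, which branches O-glycans of mucins, rose from 1522 and 1052 to 10452 and 12284 (3.16 ± 0.27). The fucosyltransferases Fut9 (-2.85 ± 0.25) and Fut2 (-4.26 ± 0.71) fell, as did Galnt3, which starts O-glycans (-3.46 ± 0.25), and the sialyltransferase St6gal1 (-1.63 ± 0.20). Muc20 had 5660 and 8135 (day 1) versus 261 and 78.6 (day 4) and Muc13 1328 and 964 (day 1) versus 49.5 and 47.9 (day 4). Genes that make and remove sialic acid were thus not all of 1 direction: Cmas, which activates it, fell from 3680 and 3264 to 1695 and 1345, and Neu1, the lysosomal sialidase, from 2988 and 2537 to 676 and 1028. Other probe sets of Neu1 changed by only 0.32 and -0.18 on the log2 scale, with signals under 50 set to 50. A further sialidase gene, Neu2, switched on (4.2 and 1.9 (day 1) versus 408 and 306 (day 4)).

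Ion channel genes fell in 9 of 32 cases and rose in 2. The calcium channel gene Trpv6 had signals of 17632 and 16738 (day 1) versus 481 and 465 (day 4) (-5.18 ± 0.27), the chloride channel gene Cftr 6000 and 4873 (day 1) versus 420 and 292 (day 4) (-3.95 ± 0.49) and the calcium-activated potassium channel gene Kcnn4 1588 and 1831 (day 1) versus 21.7 and 7.5 (day 4) (at least 34.1-fold). The sodium channel subunit Scnn1a rose from 92.3 and 122 to 399 and 427. S100g, the small calcium-binding calbindin, rose from 1784 and 4364 to 33259 and 39885 (3.71 ± 0.48) while Trpv6, which brings calcium in, fell. Among ion, phosphate and nucleoside carriers, the bicarbonate carrier gene Slc4a4 switched off (1964 and 2152 (day 1) versus 36.5 and 39.4 (day 4)), and the phosphate carriers Slc20a1 (-3.76 ± 0.18) and Slc34a2 (-4.43 ± 0.77) fell.

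Of 32 secreted defence proteins 9 were lower and 3 higher, and of 41 interleukins, chemokines and receptors 11 were lower and 3 higher. Pigr, which carries antibodies to the lumen, had signals of 35222 and 34804 (day 1) versus 2747 and 2782 (day 4) (-3.66 ± 0.34), and complement factor B (Cfb) 20998 and 22645 (day 1) versus 1251 and 490 (day 4) (-4.80 ± 0.51). The chitinase-like protein gene Chil1 had 6259 and 9071 (day 1) versus 127 and 53 (day 4) (-6.50 ± 0.55). The chemokine genes Ccl28 and Cxcl17, both known from mucosal surfaces, fell from 7623 and 9738 to 425 and 130 and from 23967 and 25129 to 2808 and 2727. Against this direction, the lysozymes Lyz1 and Lyz2, whose sequences are alike enough to share signal, rose by 2.71 ± 0.39 and 2.42 ± 0.25, and Il17rb, a receptor subunit for interleukin 25, rose from 511 and 667 to 7863 and 6689. The bacterial sensors Tlr2 and Tlr4 fell (-3.23 ± 0.45 and -2.06 ± 0.30). Of 12 macrophage markers 2 rose, among them Lyz2, and 2 fell. At an unadjusted p under 0.05 in limma, 5 passed and 3 of these were higher. The list median was 1.1, beside 0.30 over all genes. Csf1r had 139 and 238 (day 1) versus 619 and 234 (day 4) and Adgre1 44.7 and 51.1 (day 1) versus 199 and 72.9 (day 4), and neither passed. The summed signal of the 12 was 8580 to 9419 on day 1 and 1888 to 3438 on day 4. Most of the day 1 sum was Cd68 and Itgam, the markers that fell, so the sum does not describe the other markers. Cd68 read 6401 and 5746 (day 1) versus 224 and 157 (day 4) and Itgam 2373 and 2012 (day 1) versus 35.9 and 10.8 (day 4). The part of macrophages in the result was not tested. A change in cell number and a change in RNA per cell cannot be told apart in bulk samples.

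Lysosomal genes fell in 15 of 42 cases and rose in 4, with a median of -0.92. Acp5, the tartrate-resistant phosphatase, had signals of 3383 and 3527 (day 1) versus 184 and 201 (day 4) (-4.16 ± 0.28), and the cathepsin H gene Ctsh 16531 and 16867 (day 1) versus 1658 and 2327 (day 4) (-3.09 ± 0.25). Fuca1, which removes fucose from glycans, fell by 1.81 ± 0.21 on the log2 scale, the glucuronidase gene Gusb fell by 1.98 ± 0.21, and Galc, which breaks galactosylceramide, fell by 2.67 ± 0.33. The members that rose besides Ctsd included Lipa, the acid lipase that frees cholesterol from its esters, from 476 and 385 to 3414 and 2774 (2.84 ± 0.23), and the thioesterase gene Ppt1, from 1671 and 1711 to 6541 and 8148 (2.11 ± 0.22). Cd68, which is in this list and in that of macrophage markers, fell by 5.01 ± 0.39 on the log2 scale.

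Drug, retinoid and steroid enzymes rose in 8 of 36 cases and fell in 6. The sulfotransferase gene Sult1a1 had signals of 22.1 and 47.4 (day 1) versus 2915 and 2782 (day 4) (at least 57-fold), and the alcohol dehydrogenase gene Adh1, which also oxidises retinol, 55.8 and 60.5 (day 1) versus 754 and 584 (day 4) (3.49 ± 0.27). Aldh1a1, which makes retinoic acid, rose from 109 and 130 to 452 and 438. Hsd17b2, which inactivates estradiol, fell from 4405 and 2764 to 17.8 and 5.9 (at least 69.8-fold), and Crabp2, which carries retinoic acid to the nucleus, from 732 and 624 to 78.5 and 27. Arg1, the arginase of the urea cycle and a member of the amino acid list, had 31662 and 27821 (day 1) versus 123 and 7.2 (day 4) (at least 378-fold), the largest fall among the listed genes.

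Cornified envelope and keratin genes fell in 8 of 34 cases and none rose in limma, with 2 higher at an unadjusted p under 0.05. Sprr2d, a small proline-rich envelope protein with close relatives that may share its signal, had 11328 and 17284 (day 1) versus 436 and 37.8 (day 4), and the deiminase gene Padi1 17656 and 19294 (day 1) versus 250 and 84.5 (day 4). Krt23 fell from 783 and 309 to 19.3 and 6.4 (at least 9.84-fold) and Krt7 fell by 2.33 ± 0.20 on the log2 scale. Junction and adhesion genes fell in 8 of 44 cases and rose in 3, and the desmosomal cadherin gene Dsc2 fell from 3152 and 1827 to 331 and 182. Of 29 protease inhibitors 4 fell and 1 rose: Timp3, which blocks metalloproteases, from 47 and 51.9 to 2797 and 2421 (at least 51.1-fold). Of 23 antigen presentation genes 4 fell and 2 rose, among them Cd274, which restrains T cells (2.06 ± 0.31). Of 31 amino acid transporters 3 rose and 1 fell (9.7% and 3.2%, against 7.58% and 5.73% of all genes).

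Annexins, S100 proteins and tetraspanins rose in 5 of 36 cases and fell in 7. The membrane proteins Tm4sf1 and Tm4sf4 rose from 166 and 479 to 11979 and 13528 and from 10 and 5.5 to 261 and 225, and the tetraspanin gene Tspan12 fell from 2786 and 1344 to 47.7 and 43.4. Of 40 secretory granule and synaptic-type genes 3 rose and 2 fell (7.5% and 5.0%), near the shares over all genes (7.58% and 5.73%). Rims3, a relative of the scaffold of synaptic release sites, had 3.9 and 5.3 (day 1) versus 1994 and 2342 (day 4) (at least 43.2-fold). Olfm1, a secreted olfactomedin, fell from 10688 and 9560 to 6.7 and 40 (at least 202-fold).

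**Figure D5:**
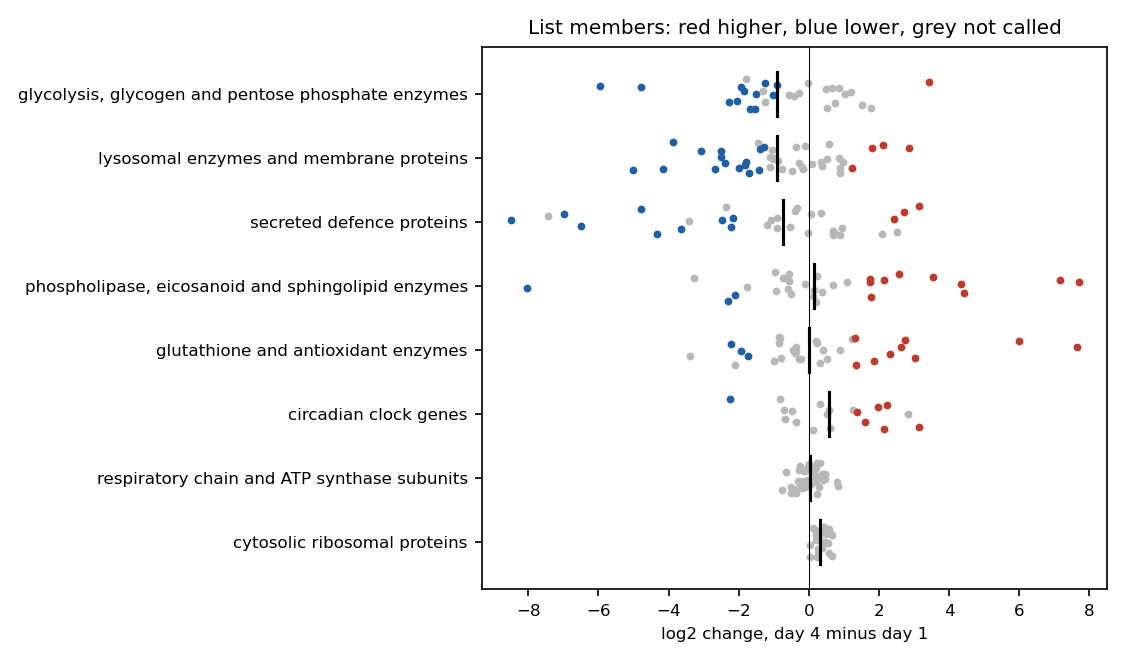
log2 change of each measured member of 8 lists, day 4 minus day 1, with members called higher in red, lower in blue and not called in grey; black bars are list medians, and dim signals enter as deposited, so long distances are not bounded at 50. The respiratory chain and ribosomal protein members lie close to 0, while single members of other lists reach -8.50 (Pglyrp1) and 7.69 (Pla2g10).

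Growth factor genes were lower in 11 and higher in 7 of 47 cases. Pdgfc, a platelet-derived growth factor, had signals of 4940 and 5271 (day 1) versus 207 and 182 (day 4) (-4.71 ± 0.31), and the vasodilator peptide gene Adm 7960 and 4830 (day 1) versus 186 and 163 (day 4) (-5.14 ± 0.87). The hormone gene Stc1 rose from 149 and 165 to 2359 and 3583, and Nrg4, a ligand of the ERBB4 receptor, from 74.3 and 45.6 to 1220 and 808. Fgfr2, a fibroblast growth factor receptor of epithelia, rose from 1946 and 2087 to 14712 and 9216, as did its ligand family member Fgf18 (2.76 ± 0.33).

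Of 44 transcription factor genes outside hormone pathways, 8 rose and 9 fell. Id2, an inhibitor of basic helix-loop-helix factors, had signals of 1710 and 1274 (day 1) versus 12176 and 12282 (day 4) (3.05 ± 0.24), and the ETS factors Ets1 and Etv5 rose, Ets1 by 3.25 ± 0.24 on the log2 scale and Etv5 at least 9.06-fold. Zbtb16 and Klf15, both also known as targets of glucocorticoids, rose from 46.5 and 55.3 to 857 and 994 and from 1.2 and 3.1 to 211 and 225. The epithelial factors Ets2 and Elf3 fell by 1.66 ± 0.24 and 1.25 ± 0.19 on the log2 scale, with another probe set of Ets2 in the opposite direction. The stress factor genes Nupr1 and Cebpd fell from 3275 and 2569 to 109 and 46 and from 9132 and 12280 to 1263 and 1807.

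Of 19 circadian clock genes 6 rose and 1 fell. The rise of 1 of them, Rorb, lay near the limit of 50 (5.7 and 6.1 (day 1) versus 75.5 and 47 (day 4)). Per1 and Per2, repressors of the clock, had signals of 283 and 357 (day 1) versus 1262 and 1575 (day 4) (2.15 ± 0.25) and of 96.8 and 122 (day 1) versus 478 and 385 (day 4) (1.97 ± 0.24). Other probe sets of Per2 rose by only 0.43 and 0.30 on the log2 scale, with signals under 50 set to 50. The output factors Tef and Dbp rose by 2.23 ± 0.28 and 1.36 ± 0.23 and the repressor Cry2 by 1.60 ± 0.27, while Bhlhe40 fell from 15702 and 16294 to 3124 and 3685. The activator genes Clock and Arntl had 578 and 783 (day 1) versus 1023 and 1023 (day 4) and 1059 and 672 (day 1) versus 545 and 673 (day 4), short of the threshold (adjusted p = 0.212 and 0.377). The labels do not give the hour of collection. Hour and day therefore cannot be told apart for this list. The E-box CACGTG is the site of the clock activators. It was found in 5 of 17 listed genes with a promoter in the RefSeq table (29.4%) and in 10.2% of all 14452. Of the 5 listed genes that rose and have a promoter there, 2 hold the box, Per1 and Tef. Ciart, Cry1 and Bhlhe41 hold it too and were not called. Over all genes the share was 12.2% among those higher on day 4 and 12.6% among those lower. A match describes these letters only. Per1 has 2 promoters, and the promoter with most matches is shown with the box in capitals, at chr11:69098699-69098998 (plus strand).
Per1: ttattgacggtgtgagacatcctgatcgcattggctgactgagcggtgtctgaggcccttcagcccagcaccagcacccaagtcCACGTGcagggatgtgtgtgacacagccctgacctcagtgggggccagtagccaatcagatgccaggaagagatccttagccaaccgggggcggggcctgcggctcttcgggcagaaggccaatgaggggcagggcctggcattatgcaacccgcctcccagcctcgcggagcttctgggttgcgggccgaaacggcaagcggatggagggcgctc

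In limma 0 of 38 respiratory chain and ATP synthase genes passed, with 4 at an unadjusted p under 0.05 and 6 with an intensity trend, and the list median was 0.05, or -0.25 after centring on the array medians. For cytosolic ribosomal proteins 0 of 24 passed, with 5 at an unadjusted p under 0.05 and 4 higher with the trend. All 24 were abundant, and their median of 0.31 lay close to that of all genes (0.30) but above that of abundant genes (0.09). Ribosome biogenesis genes fell in 3 of 38 cases, Gar1, Tsr1 and Noc2l, with changes between -1.30 and -0.89. That share (7.9%) lay between those of all genes (5.73%) and of abundant genes (10.5%). Of 36 fatty acid and lipoprotein genes 4 were higher and 4 lower (11.1% each). These shares lay near those over abundant genes (12.0% and 10.5%), so the count does not set the list apart. Acaca, the enzyme that commits carbon to fatty acid synthesis, rose from 390 and 675 to 2009 and 1797, and Dgat1, which makes triglyceride, fell from 960 and 868 to 361 and 438.

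Transcripts outside the lists, named after their values were seen, also switched. Rec8, a cohesin subunit known from meiosis, had signals of 27.6 and 44 (day 1) versus 2204 and 2361 (day 4) (at least 45.6-fold, adjusted p = 0.00582). Sycp3 of the synaptonemal complex had 35.7 and 40.5 (day 1) versus 310 and 428 (day 4), Meig1, needed for sperm formation, 3 and 23.9 (day 1) versus 614 and 718 (day 4), and the recombination gene Rad51c 10.5 and 8.8 (day 1) versus 279 and 338 (day 4). All 4 were under 50 on both day 1 arrays. Ripk3 and Mlkl, the kinase and the effector of necroptosis, were both switched off, with signals of 717 and 579 (day 1) versus 44.5 and 46.6 (day 4) (at least 12.9-fold) and of 756 and 689 (day 1) versus 27.9 and 7.1 (day 4) (at least 14.4-fold). Of 7 measured oviduct and ciliated cell markers 3 rose. The oviduct glycoprotein gene Ovgp1 rose from 165 and 288 to 5497 and 7309 and the tubulin-binding protein gene Tppp3 by 1.92 ± 0.22 on the log2 scale, and the ciliary dynein gene Dnah5 read 40.6 and 29.8 (day 1) versus 157 and 130 (day 4). Foxj1, which defines ciliated cells, read 40.2 and 39.7 (day 1) versus 28.6 and 7.9 (day 4) and did not pass. Whether oviduct tissue contributed was not tested.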

How the data were processed

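RNA (100 ng per sample) was labelled and hybridised to Affymetrix 3′ arrays, per the labels' protocols. The deposited intensity values are linear signals scaled by the authors to a common trimmed mean, as the values show. The submitters' processing notes name Transcriptome Analysis Console, Affymetrix Expression Console and RMA without giving their roles, and no detection calls were used here. Of 45101 probe sets 34945 had 1 gene symbol, 932 several and 9160 none. Each gene was read from its probe set with the highest mean, giving 18193 genes, and no gene's level was ranked against another's, although marker signals were summed per array as a description. Other probe sets of several named genes changed less than the one read, and the text states this for some only. log2(signal + 1) was fitted with limma 3.58.1 in R 4.3.3 over all 6 arrays, with 3 residual degrees of freedom and Benjamini-Hochberg adjustment, and the scripts were tested on simulated data. An exact permutation test of 2 arrays against 2 cannot go below p = 0.333.

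Named genes were the 15 largest called increases and decreases among abundant genes outside the hormone list, without predicted names, and up to 6 called abundant genes per functional list, with their paralogs and partners. Further list members were named after their values were seen. The lists and the comparison were chosen with earlier results of these data known. The number of arrays limits the precision.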

Additional observations from a re-analysis of the deposited data

How the results depend on the processing

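Higher and lower genes numbered 1379 and 1042. The count of higher genes was 587 after centring on the array medians. With an intensity trend the counts were 2538 and 1968, a setting that shared 2257 calls with the default fit. With the 4 wild-type arrays alone they were 337 and 279, and with abundant genes only, 2429 and 1959 calls. Leaving out 1 array at a time gave 0 to 1555 higher and 0 to 938 lower. The lower ends came from leaving out array 302 or 303. Leaving out either heterozygous array repeats the fit of the 4 wild-type arrays, because a lone heterozygous array adds nothing to the spread. Switched-on genes numbered 78 after centring and 28 with an upper limit of 1000 in place of 200, and 139 to 286 without 1 array. Switched-off genes numbered 22 with that limit and 97 to 212 without 1 array. By the rule, leaving out an array could not lower either count. Counts under quantile normalization, the mean of probe sets and a pseudocount of 32 stayed within 1.5 times the main ones. Of the 301 listed genes that passed, 296 still passed after quantile normalization, 183 after centring, 108 with 4 arrays, and 0 without array 302 or 303. With probe sets averaged 238 passed, and Cpe changed direction. Leave-one-out runs of the intensity trend, added after seeing the data, called 3177 to 5496 genes, against 4506 with all arrays. No paired analysis was possible because the groups share no replicate numbers. The default fit has few residual degrees of freedom, and dim signals near or under 50 carry no detection call, so only folds taken with signals under 50 set to 50 are lower limits, and the fitted changes of such genes, on which the calls rest, are not.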
